A study of Homo sapiens with 30 samples.

Results

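EGFR, ERBB2 and ERBB3, which are receptors of the epidermal growth factor (EGF) family, the ligand genes AREG, EREG, HBEGF, TGFA, EPGN and BTC, and the receptor inhibitor gene ERRFI1 were followed through RNA-seq of 5637 cells, a human bladder carcinoma cell line. The 10 genes were chosen by symbol, and each was found once in each of the 3 tables of read counts, which list 60612 genes (knockout experiment) or 56303 genes (overexpression and knockdown experiments). In the RBPMS knockout experiment, RBPMS-KO cells in 2 groups (KO1 and KO2) were compared with WT cells, each with the WT group of its own number (WT1 and WT2). In the overexpression experiment, ANKRD10-1 overexpression and ANKRD10-2 overexpression, that is of either of a pair of splice isoforms of ANKRD10, were compared with Vector only. In the knockdown experiment, siANKRD10-1 and siANKRD10-2, small interfering RNAs (siRNAs) against these isoforms, were compared with siNC, the control siRNA. Every group had 3 libraries.

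The groups have limits as models. Per the study's text, the knockouts were made with distinct guide RNAs, and knockout populations were expanded from single clones. KO1 and KO2 thus each stand for a clone rather than for many independent edits. The study names off-target effects of the guides and variation gained during clonal expansion as possible reasons why splicing agreed little between the knockouts. The labels call all 30 libraries 5637 cells, while the study's text places ANKRD10-1 overexpression and siANKRD10-2 in 5637 cells that already lacked RBPMS. Each of these tables holds a single control group. RBPMS lay at 3.57 to 6.28 counts per 1000000 counts (CPM) in every library of both tables, controls included. In the knockout experiment its mean was 40.4 CPM in WT1, 43.1 in WT2, 14.9 in KO1 and 20.3 in KO2. Levels were not compared between experiments by a test. The RBPMS background of these groups is thus not settled. Nothing says that the 3 libraries of a group came from separate cultures, so that p-values measure the spread between these libraries, which may be technical.

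Receptors of the EGF family are membrane tyrosine kinases that pair when a ligand binds. EGFR binds all 6 ligands studied here, ERBB2 has no known ligand of its own and acts as a partner, and ERBB3 binds neuregulins and has a weak kinase. The ligands are made as membrane-bound precursors that proteases such as ADAM17 cut loose, and several of the ligand genes are themselves switched on by the MAP kinase pathway that the receptors drive. ERRFI1, also called MIG6, binds the kinase domain of the receptors and inhibits it as part of a feedback loop. In urothelium, which lines the bladder, EGFR signalling serves growth and repair, and both EGFR and ERBB2 are much studied in bladder carcinoma.

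Total counts per library were 44593108 to 69723937 in the knockout experiment, 31736779 to 47493499 in the overexpression experiment and 28511029 to 32784584 in the knockdown experiment. RBPMS fell in KO1 (log2 fold change -1.44) and in KO2 (-1.09). ANKRD10 rose with ANKRD10-1 (0.67) and ANKRD10-2 (0.41), and it fell with siANKRD10-1 (-0.24) and siANKRD10-2 (-0.25). ANKRD10 also fell in KO1 (-1.175) and KO2 (-0.761). All of these changes were at edgeR adjusted p under the threshold of 0.05. Counts per gene do not separate the isoforms of ANKRD10. Of the 6 epithelial markers examined (EPCAM, CDH1, KRT7, KRT8, KRT18 and KRT19), 6 had a mean of at least 1 CPM in every group, while of the 9 urothelial or basal markers KRT20, UPK1B and UPK3A stayed under 1 CPM in every group and UPK2 did so outside the overexpression experiment. Markers of other cells were low, with at most 1.36 CPM summed over 4 immune markers, at most 3.05 CPM over 3 endothelial markers and 27.9 to 57.2 CPM over 5 fibroblast markers, and PTPRC and CD3E were at or near 0.

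EPGN, EREG, AREG and BTC lie next to each other on chromosome 4 of GRCh38, in that order, within 486214 bases and with no other protein-coding gene between them. The annotated genes are EPGN at chr4:74308473-74315307, EREG at chr4:74365143-74388751 and AREG at chr4:74445134-74455009, all on the plus strand, and BTC at chr4:74744759-74794686 on the minus strand. HBEGF lies at chr5:140332843-140346631 and TGFA at chr2:70447280-70554193, both on the minus strand. The receptor genes are EGFR at chr7:55019021-55211628, ERBB2 at chr17:39687914-39730426 and ERBB3 at chr12:56076799-56103505, on the plus strand, and ERRFI1 is at chr1:8004404-8026308 on the minus strand. Exons of EGFR share 186 bases with EGFR-AS1 on the other strand, those of ERBB2 share 765 bases with PGAP3 and MIEN1, and those of ERRFI1 share 155 bases with AL034417.4. Whether strand was used in counting is not given in the sources used here, so reads from these overlaps cannot be assigned with certainty.

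The 120 bases before the start of EREG, AREG and EPGN are shown because these neighbours moved together in KO2, and those of HBEGF because it is the ligand gene that changed by nearly the same amount in both knockouts. The sequences are from RefSeq (GRCh38.p14), read 5′ to 3′ on the strand of the gene, at chr4:74365025-74365144 (plus strand), chr4:74445016-74445135 (plus strand), chr4:74308350-74308469 (plus strand) and chr5:140346604-140346723 (minus strand). The starts used for these windows differ by some bases from the gene positions given above. The windows of HBEGF, EREG and AREG thus run into the genes as placed there, that of HBEGF the most. Capitals mark TATAA and, in AREG, TGACGTCA.
EREG: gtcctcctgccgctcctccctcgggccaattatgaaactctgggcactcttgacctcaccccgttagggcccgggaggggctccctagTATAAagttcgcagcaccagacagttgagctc
AREG: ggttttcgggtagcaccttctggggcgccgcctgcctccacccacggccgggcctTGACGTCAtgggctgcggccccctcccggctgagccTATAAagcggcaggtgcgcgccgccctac
EPGN: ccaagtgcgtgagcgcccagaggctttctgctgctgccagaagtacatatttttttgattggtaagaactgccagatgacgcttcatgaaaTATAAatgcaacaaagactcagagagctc
HBEGF: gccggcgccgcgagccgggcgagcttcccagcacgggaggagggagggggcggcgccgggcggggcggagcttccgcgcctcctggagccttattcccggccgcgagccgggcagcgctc

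TATAA, the core of the TATA box, began 32 bases before the start in EREG and 29 bases before it in AREG and in EPGN. Such a match, on the strand of the gene and beginning 40 to 20 bases before the start, was found in 3.91% of 35116 promoters. Promoters were given for 9 of the 10 genes, all but ERBB3, with 11 windows in all since EGFR and TGFA have more than 1 start, and among these windows 4 held the match, the other being an alternative start of EGFR. TGACGTCA, the cyclic AMP response element, is present in AREG and in 1.65% of all promoters, searched on both strands over 250 bases. TGACG, the first 5 letters of that element and thus overlapping it, occurred on either strand in 4 of the 11 windows (TGFA, EPGN, EREG and AREG) and in 21.2% of all promoters. GGGCGG, a motif of Sp1 sites, occurred in 5 of the 11 windows (HBEGF, AREG, EGFR, TGFA and ERRFI1) and in 42.6% of all promoters. TGANTCA, the AP-1 motif, occurred in 2 of the 11 windows (EGFR and ERBB2) and in 6.57% of all. CACGTG, the E-box that MYC and MAX bind, occurred in none of the 11 windows and in 6.34% of all promoters, which says only that these letters are absent from these windows.

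The levels of the members differed widely. Per kb of exon, WT1 cells had ERRFI1 at 31.9 ± 0.644 CPM per kb (SD, n = 3), EGFR at 29.1 ± 0.982, ERBB2 at 17.8 ± 0.387, AREG at 15.8 ± 0.545 and EPGN at 12.7 ± 0.481, and neighbours in this order did not overlap. EREG (7.84 ± 0.508), TGFA (7.24 ± 0.200) and ERBB3 (7.21 ± 0.308) followed with ranges that overlapped from each to the next, then HBEGF (3.77 ± 0.185) and BTC (1.79 ± 0.353). The order in WT2 was alike, with EGFR and ERRFI1 overlapping at the top, and EREG lower, at 4.71 ± 0.200 CPM per kb. ERRFI1 and EGFR were thus the most abundant of these transcripts per length in the knockout experiment, and BTC the least.

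The control groups of the ANKRD10 experiments had another order. AREG led by far per length, with 121 ± 5.47 CPM per kb in Vector and 71.8 ± 7.77 in siNC, against 15.8 in WT1. Without division by length, EGFR led in siNC with a mean of 214 CPM against 118 for AREG. In Vector AREG (192 to 210 CPM) and EGFR (186 to 199) overlapped. EPGN was low, with 0.887 ± 0.0238 CPM per kb in Vector and 2.65 ± 0.0928 in siNC. HBEGF, at 23.9 ± 0.503 CPM per kb in Vector and 14.5 ± 0.395 in siNC, was also above its level in WT1. ERBB2 stood at 4.48 ± 0.255 CPM per kb in Vector and 8.18 ± 0.171 in siNC, below its level in WT1. These are separate experiments without libraries in common, so levels are given side by side and differences between tables were not tested.

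Summed over the 6 ligand genes, the level per length was 49.1 ± 0.246 CPM per kb in WT1 and 72.7 ± 1.92 in KO1, and 40.6 ± 0.930 in WT2 and 115 ± 3.15 in KO2. The sum was 167 ± 4.94 CPM per kb in Vector, 197 ± 5.81 with ANKRD10-1 and 246 ± 2.03 with ANKRD10-2. In the knockdown experiment it was 99.7 ± 7.83 CPM per kb in siNC, 121 ± 4.82 with siANKRD10-1 and 113 ± 2.26 with siANKRD10-2. The sum in every treated group lay above that of its control group without overlap, but this did not hold for each ligand gene. With both siRNAs the means of HBEGF, TGFA and EPGN were below those in siNC, and EREG was above. BTC was lower with siANKRD10-1 and higher with siANKRD10-2. HBEGF, for example, was at 14.5 CPM per kb in siNC, 11.9 with siANKRD10-1 and 12.4 with siANKRD10-2. AREG filled most of the sum in the overexpression and knockdown experiments. AREG made up 32.2% of the sum in WT1 and 29.2% in WT2 but 72.5% in Vector and 71.8% in siNC, while EPGN made up 25.8% in WT1, 25.6% in WT2, 0.530% in Vector and 2.67% in siNC.

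**Figure D1:**
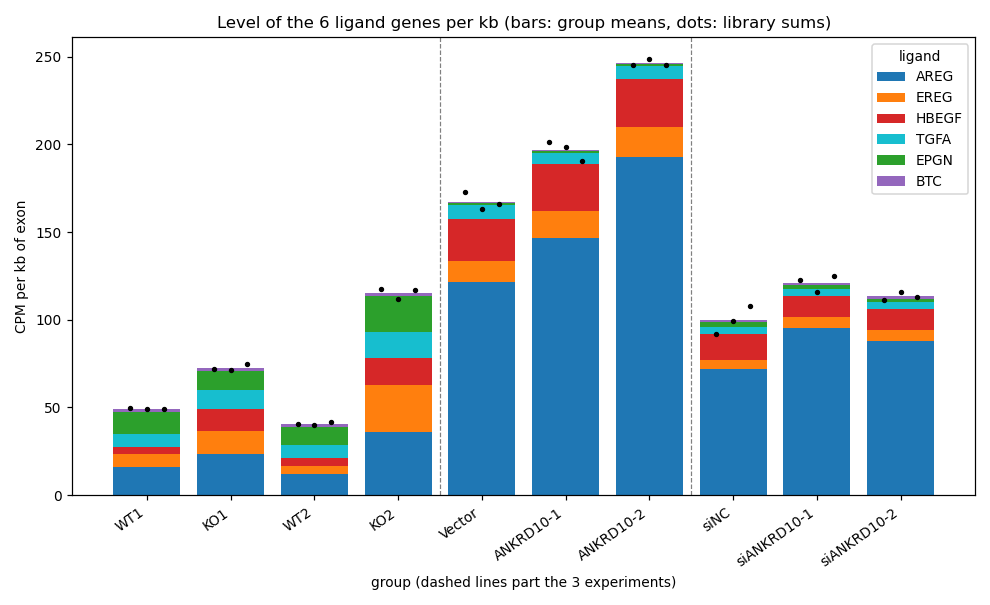
Stacked bars show the mean level of each ligand gene (vertical axis, CPM per kb of exon) in each of the 10 groups (horizontal axis), and black dots show the sum in each library. AREG fills most of each bar in the overexpression and knockdown experiments and about as much as EPGN in WT1 and WT2, and the sum in KO2, 115 CPM per kb, stands against 40.6 in WT2.

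Loss of RBPMS went with more transcript of most ligand genes. In KO1, 4 of the 10 genes rose (HBEGF, EREG, TGFA and AREG) and 3 fell (ERBB3, ERBB2 and ERRFI1), where 17.9% of all 17865 genes tested rose and 18.2% fell. In KO2, 7 rose (EREG, HBEGF, AREG, TGFA, EPGN, ERRFI1 and EGFR) and 2 fell (ERBB3 and ERBB2), where 19.3% of 18267 genes rose and 19.2% fell. The median log2 fold change of the 10 genes was 0.05 in KO1 and 0.80 in KO2, and that of all genes tested was 0.00 and -0.02.

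HBEGF, the heparin-binding ligand that also serves as the receptor for diphtheria toxin, was at 10.8, 11.9 and 11.4 CPM in the WT1 libraries and at 35.9, 38.4 and 39.5 CPM in KO1. In WT2 it was at 12.7, 13.1 and 14.6 CPM and in KO2 at 43.3, 40.7 and 54.0 CPM. All knockout libraries were far above all WT libraries, and KO2 replicate 3 was the highest. The log2 fold change was 1.73 ± 0.077 (SE) in KO1 (edgeR adjusted p = 6.65e-08) and 1.77 ± 0.099 in KO2 (edgeR adjusted p = 6.5e-08), or 3.33-fold and 3.41-fold.

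EREG, which encodes epiregulin, was at 48.1, 42.7 and 43.7 CPM in WT1 and at 70.9, 76.8 and 77.9 CPM in KO1. It was at 28.2, 26.1 and 26.5 CPM in WT2 and at 159, 145 and 153 CPM in KO2. The KO2 libraries were thus the highest, KO1 lay between, and WT2 was below WT1. The rise was 0.74 ± 0.065 on the log2 scale in KO1 (1.67-fold, edgeR adjusted p = 8.97e-06) and 2.49 ± 0.052 in KO2 (5.63-fold, edgeR adjusted p = 2.22e-11), the latter being the largest change of any of the 10 genes in the 6 comparisons with a control group.

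AREG, which encodes amphiregulin, followed the same order of groups at lower amplitude. Its libraries were at 26.7, 25.0 and 26.5 CPM in WT1, at 40.3, 33.3 and 41.6 CPM in KO1, at 18.5, 20.7 and 19.5 CPM in WT2 and at 60.1, 58.8 and 59.9 CPM in KO2. No knockout library overlapped its WT group. AREG rose by 0.56 ± 0.086 on the log2 scale in KO1 (1.47-fold, edgeR adjusted p = 0.00047) and by 1.60 ± 0.055 in KO2 (3.04-fold, edgeR adjusted p = 9.9e-10).

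TGFA, the gene of transforming growth factor alpha, was at 37.1, 35.4 and 35.3 CPM in WT1 and 34.2, 35.3 and 38.1 CPM in WT2. It was at 57.1, 54.2 and 53.5 CPM in KO1 and at 76.4, 76.0 and 69.9 CPM in KO2. The WT groups lay together, KO1 above them and KO2 above KO1. The log2 fold changes were 0.61 ± 0.057 in KO1 (edgeR adjusted p = 1.44e-05) and 1.04 ± 0.057 in KO2 (edgeR adjusted p = 5.48e-08).

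EPGN, which encodes epigen, had 22.0, 23.7 and 23.3 CPM in WT1 and 17.0, 22.1 and 18.8 CPM in KO1, and these ranges overlapped. In WT2 it had 20.2, 17.3 and 19.2 CPM and in KO2 37.8, 36.2 and 36.5 CPM, well apart. EPGN rose in KO2 only by the test used (log2 fold change 0.96 ± 0.067, edgeR adjusted p = 3.9e-07), and in KO1 its value was -0.25 ± 0.099 (edgeR adjusted p = 0.0672), with the difference between the knockouts tested below. Under 5 of 14 alternative settings the KO1 value passed the threshold as a fall.

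BTC, which encodes betacellulin, was the lowest of the ligand genes here, with 4.37 to 6.17 CPM in WT1, 5.11 to 5.81 in KO1, 5.01 to 5.95 in WT2 and 5.52 to 6.87 in KO2. All 4 groups overlapped. The log2 fold changes were 0.13 (95% interval -0.25 to 0.50) in KO1 and 0.12 (-0.20 to 0.43) in KO2, neither past the threshold.

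**Figure D2:**
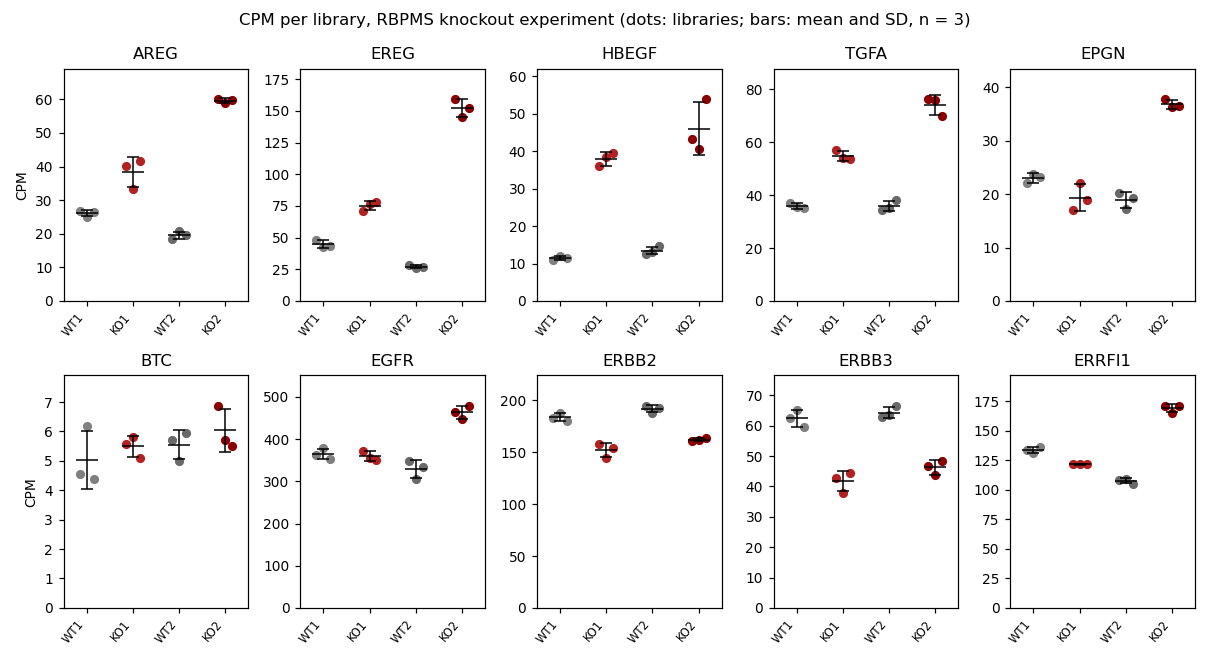
Each panel shows one gene in the knockout experiment, with CPM on the vertical axis from 0, the groups WT1, KO1, WT2 and KO2 on the horizontal axis, a dot for each library and a bar for the mean and SD (n = 3). HBEGF rises from about 11.4 and 13.5 CPM on average to 37.9 and 46.0, EREG reaches 152 CPM in KO2, and ERBB3 and ERBB2 lie lower in both knockouts.

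Of the receptor genes, ERBB3 and ERBB2 fell in both knockouts. ERBB3 was at 62.5, 65.0 and 59.7 CPM in WT1 and 42.7, 38.0 and 44.4 CPM in KO1, and at 62.9, 63.6 and 66.6 CPM in WT2 and 46.9, 43.7 and 48.5 CPM in KO2. The WT libraries lay above all knockout libraries. ERBB3 fell by 0.58 on the log2 scale (SE 0.068, edgeR adjusted p = 7.35e-05) in KO1 and by 0.48 (SE 0.051, edgeR adjusted p = 1.54e-05) in KO2. ERBB2 was at 180 to 188 CPM in WT1 and 145 to 158 in KO1, and at 188 to 195 CPM in WT2 and 161 to 164 in KO2, again without overlap. Its falls were smaller, at 0.27 (SE 0.049) and 0.25 (SE 0.034).

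EGFR, by contrast, was at 362, 378 and 354 CPM in WT1 and 373, 355 and 351 CPM in KO1, which overlapped. In WT2 it was at 347, 307 and 335 CPM and in KO2 at 464, 448 and 479 CPM, all KO2 libraries being higher. The log2 fold change was -0.02 (95% interval -0.12 to 0.08, edgeR adjusted p = 0.754) in KO1 and 0.49 ± 0.044 (edgeR adjusted p = 3.57e-06) in KO2. EGFR made up 53.8% of the summed level per kb of the 3 receptor genes in WT1 and 59.5% in KO1, and 50.3% in WT2 and 63.7% in KO2. In KO1 the larger share went with the lower levels of ERBB2 and ERBB3.

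ERRFI1 was at 134, 131 and 136 CPM in WT1 and at 122, 122 and 121 CPM in KO1, a small shift downwards. In WT2 it was at 109, 109 and 105 CPM and in KO2 at 171, 165 and 171 CPM, well above. The log2 fold change was -0.14 ± 0.044 in KO1 (edgeR adjusted p = 0.0317) and 0.65 ± 0.037 in KO2 (edgeR adjusted p = 7e-08). The KO1 call did not last: it was lost under 7 of 14 alternative settings, among them all 6 WT libraries as the control, where the value was 0.01 (edgeR adjusted p = 0.922).

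The knockouts differed from each other in 6 of the 10 genes, where 23.3% of 19189 genes did. The KO1 effect minus the KO2 effect was -1.75 ± 0.083 for EREG, -1.22 ± 0.122 for EPGN, -1.05 ± 0.104 for AREG, -0.79 ± 0.052 for ERRFI1, -0.51 ± 0.066 for EGFR and -0.43 ± 0.078 for TGFA on the log2 scale, with edgeR adjusted p between 6.11e-10 and 0.000685. All 6 were in the direction of a higher value in KO2, and the 3 largest were the neighbours EREG, EPGN and AREG on chromosome 4. For HBEGF the difference was -0.04 (95% interval -0.32 to 0.25), for ERBB2 -0.03 (-0.15 to 0.09), for ERBB3 -0.11 (-0.29 to 0.08) and for BTC 0.01 (-0.46 to 0.48), so that no difference was found for these, within intervals that are narrow for ERBB2 and wide for BTC.

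**Figure D3:**
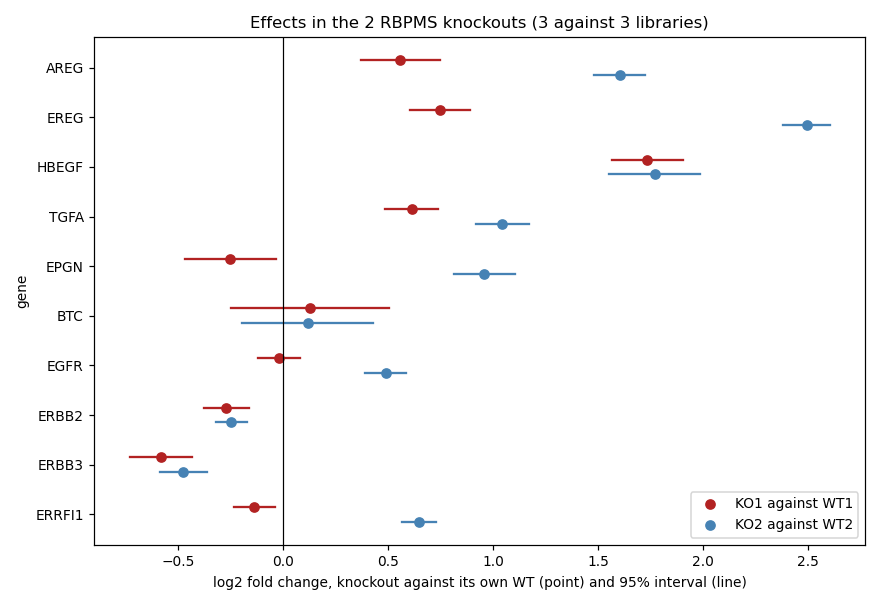
Points show the log2 fold change of each gene (vertical axis) in KO1 against WT1 (red) and KO2 against WT2 (blue), and lines the 95% interval (horizontal axis, log2 scale, 3 libraries in each group). HBEGF, ERBB2 and ERBB3 have nearly the same value in both knockouts, at 1.73 and 1.77, -0.27 and -0.25, and -0.58 and -0.48, while EREG lies at 0.74 in KO1 and 2.49 in KO2.

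The WT groups themselves differed in 3 of the 10 genes, EREG, AREG and ERRFI1, where 1.23% of 18335 genes did. In WT2 against WT1 the log2 fold change was -0.73 ± 0.064 for EREG (edgeR adjusted p = 0.000159), -0.41 ± 0.069 for AREG (edgeR adjusted p = 0.0128) and -0.31 ± 0.042 for ERRFI1 (edgeR adjusted p = 0.00341). The AREG call was lost without WT1 replicate 1 or 3 or WT2 replicate 1 or 3, at edgeR adjusted p up to 0.065, and DESeq2 called 5 members and 690 genes in place of 3 and 226. All 3 are among the 6 genes whose knockout effects differed, and the differences between those effects include the one between the controls. Against all 6 WT libraries, EREG stood at 1.07 in KO1 and 2.08 in KO2, AREG at 0.75 and 1.38, TGFA at 0.62 and 1.04, EPGN at -0.12 and 0.81, EGFR at 0.05 and 0.41 and ERRFI1 at 0.01 and 0.48, KO2 being the higher for each. The summed epithelial markers were alike in the 4 groups (2960 to 3230 CPM), while the summed urothelial or basal markers were 1250 to 1300 CPM in KO1 and 1120 to 1130 in WT1, and 994 to 1020 in KO2 and 1050 to 1080 in WT2. The summed fibroblast markers were lower in both knockouts without overlap, at 32.6 to 38.1 CPM in KO1 and 52.6 to 56.3 in WT1, and at 49.8 to 52.2 in KO2 and 55.1 to 56.2 in WT2. Mitochondrial transcripts took 6.05 to 6.71% of counts in KO2 and 7.38 to 7.84% in WT2. The part of these shifts in the results was not tested.

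Other genes near the chromosome 4 ligand genes were counted as well. Within 1000000 bases on either side, 17 further genes were tested in each knockout comparison. Of these, 3 rose and 7 fell in KO1 (median log2 fold change -0.27), where 17.9% of all genes rose and 18.2% fell. In KO2 5 rose and 6 fell (median -0.05), where 19.3% of all genes rose and 19.2% fell. The 5 that rose in KO2, named after their values were seen, were the chemokine genes CXCL1, CXCL2, CXCL3, CXCL5 and CXCL8, while CXCL6 was far lower in both knockouts, with log2 fold changes of -8.24 and -7.47. In the difference between the knockouts 18 further genes were tested, with a median of -0.48 against 0.00 for all genes, and the 6 that passed the threshold (these 5 and RASSF6) all had the higher log2 fold change in KO2, as EREG, EPGN and AREG did. With ANKRD10-2 the 5 of 14 that passed were the same 5 chemokine genes and all were lower (median -0.26), while AREG and EREG rose. Of the neighbours tested with ANKRD10-1, 1 of 14 passed and was lower. With siANKRD10-1 1 rose and 2 fell of 12, and with siANKRD10-2 the 5 of 13 that passed were lower. The share of all genes that passed in either direction was 23.3% in the difference between the knockouts. It was 6.31% with ANKRD10-1, 19.9% with ANKRD10-2, 10.6% with siANKRD10-1 and 36.3% with siANKRD10-2.

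AREG rose most of the 10 genes with ANKRD10-2 overexpression. With ANKRD10-1, 2 genes rose (EREG and AREG) and 2 fell (TGFA and EGFR), where 3.5% of 20457 genes rose and 2.81% fell. With ANKRD10-2, 4 rose (AREG, EREG, ERRFI1 and HBEGF) and 2 fell (EGFR and ERBB3), where 10.7% of 20177 genes rose and 9.25% fell. Median log2 fold changes of the 10 genes were 0.03 and -0.10, against 0.00 and -0.01 for all genes tested. Both comparisons use the same Vector libraries.

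AREG was at 210, 192 and 199 CPM in Vector, at 248, 243 and 232 CPM with ANKRD10-1 and at 313, 320 and 320 CPM with ANKRD10-2. The 3 groups did not overlap and rose in that order. The log2 fold change was 0.27 ± 0.047 with ANKRD10-1 (1.21-fold, edgeR adjusted p = 0.00161) and 0.67 ± 0.048 with ANKRD10-2 (1.59-fold, edgeR adjusted p = 3.51e-07), and ANKRD10-2 against ANKRD10-1 gave 0.40 ± 0.050 (edgeR adjusted p = 3.83e-05).

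EREG was at 68.8, 71.6 and 71.7 CPM in Vector, 91.6, 92.1 and 86.8 CPM with ANKRD10-1 and 103, 99.2 and 92.7 CPM with ANKRD10-2. Both isoforms lay above Vector, and the isoforms lay close to each other. Its log2 fold changes were 0.35 ± 0.047 (edgeR adjusted p = 0.00013) and 0.48 ± 0.053 (edgeR adjusted p = 3.1e-05), and the difference between the isoforms was 0.13 (95% interval 0.01 to 0.24, edgeR adjusted p = 0.189).

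HBEGF was at 73.7, 72.0 and 70.7 CPM in Vector, 79.5, 81.5 and 79.4 CPM with ANKRD10-1 and 87.3, 86.0 and 76.7 CPM with ANKRD10-2. The shift was small beside that in the knockouts, with 0.15 ± 0.046 for ANKRD10-1 (edgeR adjusted p = 0.0575) and 0.21 ± 0.057 for ANKRD10-2 (edgeR adjusted p = 0.0189), and the latter call was lost under 5 of 13 alternative settings. TGFA was at 36.4, 42.4 and 39.9 CPM in Vector and at 33.5, 31.1 and 33.7 CPM with ANKRD10-1, a fall of 0.27 on the log2 scale (SE 0.064, edgeR adjusted p = 0.0162) that was lost without ANKRD10-1 replicate 2 or without Vector replicate 2, the highest adjusted p being 0.0877. With ANKRD10-2 TGFA overlapped Vector, at 34.9 to 39.6 CPM (log2 fold change -0.08, edgeR adjusted p = 0.496).

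EPGN and BTC were near the lower end of what was tested. EPGN was at 1.57 to 1.65 CPM in Vector, 1.30 to 2.20 with ANKRD10-1 and 1.20 to 1.70 with ANKRD10-2, with log2 fold changes of 0.14 (95% interval -0.30 to 0.58) and -0.20 (-0.66 to 0.24). BTC was at 2.00 to 2.46 CPM in Vector, 1.35 to 1.67 with ANKRD10-1 and 1.31 to 1.88 with ANKRD10-2, without overlap with Vector, but its log2 fold changes of -0.54 ± 0.182 (edgeR adjusted p = 0.0871) and -0.45 ± 0.195 (edgeR adjusted p = 0.125) did not pass the threshold.

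EGFR was lower with either isoform, the direction opposite to that of the ligand genes AREG and EREG. It was at 199, 197 and 186 CPM in Vector, 169, 173 and 174 CPM with ANKRD10-1 and 149, 153 and 151 CPM with ANKRD10-2, each group below the one before. EGFR fell by 0.17 on the log2 scale with ANKRD10-1 (SE 0.044, edgeR adjusted p = 0.0238) and by 0.36 with ANKRD10-2 (SE 0.046, edgeR adjusted p = 0.000101), with -0.19 ± 0.049 between the isoforms (edgeR adjusted p = 0.0229). The ANKRD10-1 call was lost when any of 4 libraries was left out (ANKRD10-1 replicate 1 or 2, Vector replicate 1 or 2), at adjusted p up to 0.116. The difference between the isoforms was lost likewise without ANKRD10-1 replicate 1, 2 or 3 or ANKRD10-2 replicate 3, at adjusted p up to 0.0966.

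ERBB3 was at 35.4, 37.7 and 34.7 CPM in Vector, 33.6, 30.9 and 30.7 CPM with ANKRD10-1 and 28.2, 30.8 and 27.5 CPM with ANKRD10-2. It fell with ANKRD10-2 by 0.32 on the log2 scale (SE 0.065, edgeR adjusted p = 0.0041), and its value with ANKRD10-1 was -0.18 ± 0.061 (edgeR adjusted p = 0.0914). ERBB2 overlapped between the groups, at 44.3 to 49.3, 45.9 to 48.7 and 38.8 to 45.0 CPM, with 0.02 (95% interval -0.10 to 0.13) and -0.13 (-0.28 to 0.01).

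ERRFI1 was at 183, 192 and 183 CPM in Vector, 195, 191 and 186 CPM with ANKRD10-1 and 216, 231 and 223 CPM with ANKRD10-2. Only the ANKRD10-2 libraries stood apart, with a log2 fold change of 0.27 ± 0.047 (edgeR adjusted p = 0.00134) against 0.04 ± 0.043 (edgeR adjusted p = 0.684) for ANKRD10-1, and ANKRD10-2 against ANKRD10-1 gave 0.23 ± 0.050 (edgeR adjusted p = 0.00814). In all, 3 of the 10 genes differed between the isoforms (AREG, ERRFI1 and EGFR), where 7.26% of 20052 genes did. Summed epithelial markers were 2480 to 2660 CPM in Vector, 2780 to 2850 with ANKRD10-1 and 2800 to 3200 with ANKRD10-2, summed urothelial or basal markers 466 to 478, 510 to 519 and 579 to 588 CPM, and mitochondrial counts 8.47 to 8.66%, 7.39 to 8.68% and 7.59 to 7.75%. What part these shifts have in the results was not tested.

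AREG rose and HBEGF fell with both siRNAs. With siANKRD10-1, 2 of the 10 genes rose (AREG and EREG) and 1 fell (HBEGF), where 5.08% of 18785 genes rose and 5.52% fell. With siANKRD10-2, 2 rose (ERBB3 and AREG) and 3 fell (EPGN, ERRFI1 and HBEGF), where 17.6% of 18924 genes rose and 18.7% fell. Median log2 fold changes of the 10 genes were -0.05 and -0.09, and 0.00 for all genes tested in both. The siNC libraries serve both comparisons.

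AREG was at 105, 119 and 131 CPM in siNC, 160, 149 and 163 CPM with siANKRD10-1 and 143, 149 and 143 CPM with siANKRD10-2. Both knockdowns lay above siNC without overlap, although the siNC libraries were spread. AREG rose by 0.41 ± 0.069 on the log2 scale with siANKRD10-1 (edgeR adjusted p = 0.00077) and by 0.29 ± 0.063 with siANKRD10-2 (edgeR adjusted p = 0.000547). It was therefore the one member called higher in all 6 comparisons with a control group, with overexpression and with knockdown of ANKRD10 alike. Each of these calls held under every alternative run with the adjusted p threshold alone. EREG was also above 0 in all 6, its value with siANKRD10-2 being short of the threshold (0.14, edgeR adjusted p = 0.0968).

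EREG was at 31.6, 30.6 and 30.8 CPM in siNC, 35.1, 36.6 and 35.7 CPM with siANKRD10-1 and 32.8, 33.6 and 35.8 CPM with siANKRD10-2. The shift was slight, with 0.21 ± 0.063 (edgeR adjusted p = 0.0415) and 0.14 ± 0.064 (edgeR adjusted p = 0.0968). The siANKRD10-1 call was lost under 8 of 13 alternative settings, among them the omission of any 1 of the 6 libraries, at adjusted p up to 0.171.

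HBEGF was at 43.1, 42.8 and 45.0 CPM in siNC, 35.7, 35.3 and 37.0 CPM with siANKRD10-1 and 36.9, 38.2 and 37.0 CPM with siANKRD10-2. Both knockdowns lay below siNC and overlapped each other. It fell by 0.28 on the log2 scale (SE 0.061, edgeR adjusted p = 0.00632) and by 0.22 (SE 0.060, edgeR adjusted p = 0.00431). TGFA was at 20.3 to 21.0 CPM in siNC, 19.3 to 20.8 with siANKRD10-1 and 16.8 to 19.9 with siANKRD10-2, with -0.04 (95% interval -0.19 to 0.12) and -0.16 (-0.33 to 0.00).

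EPGN was at 4.99, 4.78 and 4.66 CPM in siNC, 4.31, 3.46 and 3.71 CPM with siANKRD10-1 and 3.18, 3.72 and 3.53 CPM with siANKRD10-2. It fell with siANKRD10-2 by 0.47 on the log2 scale (SE 0.145, edgeR adjusted p = 0.0126), a call lost without siANKRD10-2 replicate 1 (edgeR adjusted p = 0.0575), and was at -0.33 ± 0.140 with siANKRD10-1 (edgeR adjusted p = 0.147). BTC was at 2.95 to 4.02, 3.37 to 3.83 and 4.28 to 4.83 CPM, with -0.03 (95% interval -0.37 to 0.30) and 0.32 (0.00 to 0.63, edgeR adjusted p = 0.113).

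Among EGFR, ERBB2 and ERBB3, only ERBB3 passed the threshold in the knockdown experiment, and with siANKRD10-2 alone. It was at 33.8, 35.2 and 31.7 CPM in siNC, 29.7, 35.2 and 31.5 CPM with siANKRD10-1 and 46.2, 43.5 and 46.3 CPM with siANKRD10-2, the last group standing clear of both others. The log2 fold change was -0.06 ± 0.073 (edgeR adjusted p = 0.646) with siANKRD10-1 and 0.43 ± 0.063 (edgeR adjusted p = 4.26e-06) with siANKRD10-2, and the direct difference was 0.50 ± 0.069 (edgeR adjusted p = 4.16e-06). ERBB3 accordingly took 18.1 ± 0.360% of the summed level per kb of the receptor genes with siANKRD10-2, against 13.3 ± 0.363% in siNC. EGFR was at 209 to 218, 190 to 207 and 194 to 205 CPM, with -0.09 (95% interval -0.21 to 0.03) and -0.10 (-0.21 to 0.00), and ERBB2 at 82.5 to 86.1, 82.3 to 86.1 and 75.9 to 82.3 CPM, with 0.00 (-0.11 to 0.12) and -0.08 (-0.19 to 0.03).

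ERRFI1 was at 92.2, 95.2 and 95.8 CPM in siNC, 87.0, 88.4 and 90.1 CPM with siANKRD10-1 and 74.6, 76.9 and 86.2 CPM with siANKRD10-2. It fell with siANKRD10-2 by 0.25 on the log2 scale (SE 0.058, edgeR adjusted p = 0.00129) and was at -0.09 ± 0.054 with siANKRD10-1 (edgeR adjusted p = 0.308). In the direct comparison of the siRNAs, ERBB3 and ERRFI1 differed, 2 of the 10 genes, where 37% of 18832 genes did. The ERRFI1 difference, -0.15 ± 0.059 (edgeR adjusted p = 0.0461), was lost under 8 of 13 alternative settings.

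The siANKRD10-2 libraries stood apart in other measures. Their summed epithelial markers were 2800 to 2930 CPM, against 3720 to 4050 with siANKRD10-1 and 4410 to 4700 in siNC, and their summed urothelial or basal markers 598 to 617 CPM, against 847 to 857 and 1060 to 1090. Mitochondrial transcripts took 8.92 to 10.5% of their counts, against 11.9 to 13.0% and 12.0 to 13.8%. The part of these shifts in the ERBB3, EPGN and ERRFI1 results was not tested.

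**Figure D4:**
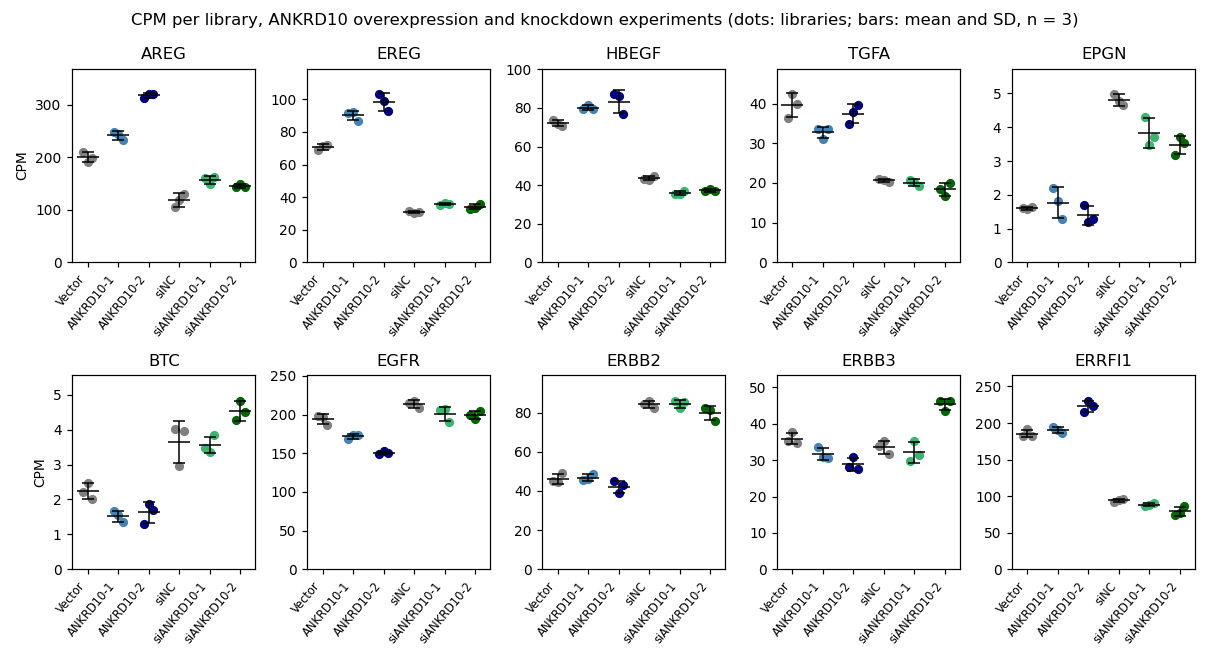
Each panel shows one gene in the overexpression and knockdown experiments, with CPM on the vertical axis from 0, the 6 groups on the horizontal axis, a dot for each library and a bar for the mean and SD (n = 3). AREG rises from a mean of 200 CPM in Vector to 241 and 318 with the isoforms and from 118 in siNC to 157 and 145 with the siRNAs, and ERBB3 reaches 45.4 CPM with siANKRD10-2. Levels of the experiments were not compared by a test.

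Across the 6 comparisons with a control group, 34 of 60 values passed the threshold, where 24.2% of the values of all genes did, from 6.31% with ANKRD10-1 to 38.5% in KO2. The root mean square log2 fold change over the 6 was 1.09 for EREG, 1.03 for HBEGF and 0.78 for AREG, and 0.26 for EGFR and 0.16 for ERBB2 at the lower end. HBEGF rose in both knockouts and with ANKRD10-2 and fell with both siRNAs. EREG rose in 5 of the 6 comparisons. The HBEGF call with ANKRD10-2 was lost under 5 of 13 alternative settings, and the EREG call with siANKRD10-1 under 8 of 13. BTC passed the threshold in 0 of 6 by edgeR and 0 by DESeq2, with 3 of 6 at an unadjusted p under 0.05, and ERBB2 did so in the knockouts alone, where its falls were not compared with its values in the other experiments. Of the 34 calls, 28 held under every alternative run with the adjusted p threshold alone, and 6 were lost under at least 1.

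**Figure D5:**
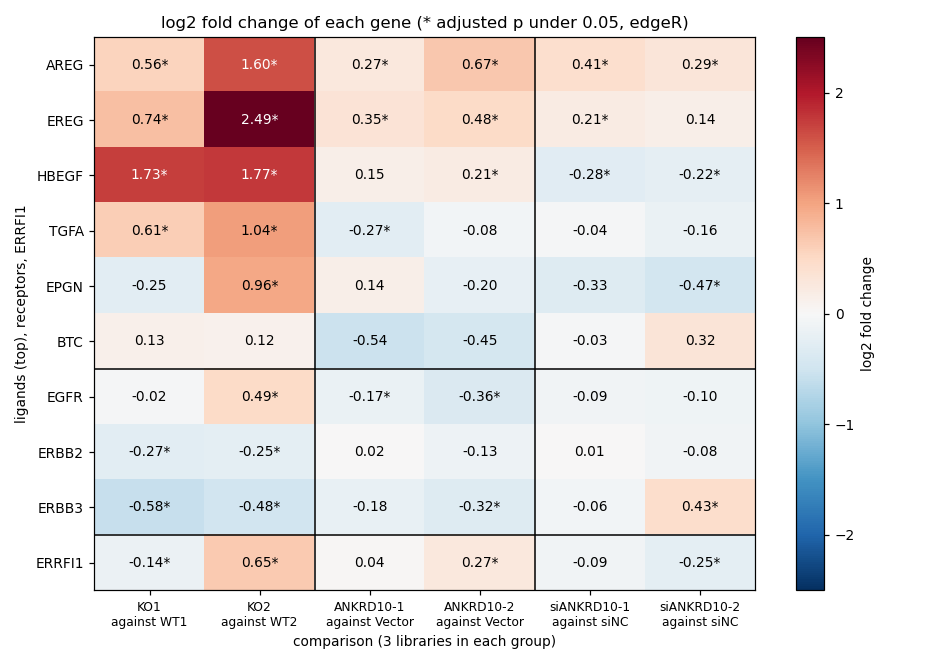
Colours and numbers give the log2 fold change of each of the 10 genes (rows) in each comparison with a control group (columns, 3 libraries in each group), and an asterisk marks an edgeR adjusted p under 0.05. Of the ligand rows, HBEGF, EREG, AREG and TGFA are above 0 with an asterisk in both knockout columns. EPGN is so in KO2 only (-0.25 in KO1). AREG and EREG are above 0 in all 6 columns, and BTC bears no asterisk.

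The genes whose pattern over the 6 comparisons lay nearest to EREG, by the root mean square difference of the log2 fold changes among 13588 genes, were IL11 (0.23), SH3GL2 (0.24) and PCED1B-AS1 (0.25). AREG, its neighbour on the chromosome, was the 11th nearest (0.40). Nearest to HBEGF were SLC16A6 (0.22), C15orf56 (0.23) and CDH13 (0.24), and EREG was the 135th (0.57). The overexpression comparisons share the Vector libraries and the knockdown comparisons the siNC libraries, and these distances are a description.

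Other genes of the pathway, taken from lists by role, were counted in the same comparisons. The counts below stand against the shares of all genes that rose and that fell, which were 17.9% and 18.2% in KO1, 19.3% and 19.2% in KO2, 3.5% and 2.81% with ANKRD10-1, 10.7% and 9.25% with ANKRD10-2, 5.08% and 5.52% with siANKRD10-1 and 17.6% and 18.7% with siANKRD10-2. Of 11 response genes of the MAP kinase pathway, which lies below the receptors, 6 rose in KO1 and 9 in KO2, 3 rose and 1 fell with ANKRD10-1, 4 rose and 1 fell with ANKRD10-2, 1 rose and 4 fell with siANKRD10-1, and 2 rose and 4 fell with siANKRD10-2. In the knockouts 0 fell by edgeR, 0 by DESeq2 and 0 at an unadjusted p under 0.05. Their median log2 fold changes were 0.50, 0.92, 0.01, 0.00, -0.23 and -0.13 in that order, where all genes had a median within 0.02 of 0. FOSL1, a transcription factor of the AP-1 family, rose in KO1 (2.14 ± 0.102), KO2 (1.88 ± 0.141), ANKRD10-1 (0.42 ± 0.044) and ANKRD10-2 (0.89 ± 0.048) and fell with siANKRD10-1 (-0.47 ± 0.077). ETV5, a transcription factor of the ETS family, rose in KO2 (1.70 ± 0.384). DUSP5, a phosphatase of ERK, rose with ANKRD10-1 (0.54 ± 0.108) and ANKRD10-2 (0.80 ± 0.107) and in KO1 (0.99) and KO2 (1.06). DUSP6, another ERK phosphatase, fell with ANKRD10-1 (-0.37 ± 0.059) and ANKRD10-2 (-0.70 ± 0.063) and rose in KO1 (0.50 ± 0.060), KO2 (1.30 ± 0.083) and with siANKRD10-2 (0.29 ± 0.058). SPRY4 and SPRED1, inhibitors of the pathway, fell with siANKRD10-1 (-0.51 ± 0.114 and -0.53 ± 0.086) and with siANKRD10-2 (-0.90 ± 0.124 and -0.57 ± 0.088). SPRY4 rose in KO1 (0.85), KO2 (0.74), ANKRD10-1 (0.32) and ANKRD10-2 (0.52), and SPRED1 rose in KO2 (0.31).

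Of the other ligands and receptor of the family (EGF, NRG1, NRG2, NRG3, NRG4 and ERBB4), 4 were tested in each knockout comparison. NRG1, NRG4 and ERBB4 were tested in both, NRG2 only in KO1 and EGF only in KO2. In KO1 2 were higher and 2 lower, and in KO2 1 was higher and 2 lower. NRG2, counted as higher in KO1, was near the floor, with means of 0.0404 CPM in WT1 and 0.330 in KO1. ERBB4, a receptor of neuregulins, fell in KO1 from a mean of 2.00 to 0.307 CPM (log2 fold change -2.73 ± 0.428) and was also lower in KO2 (-0.96 ± 0.338). With siANKRD10-2 it rose from 0.248 to 0.541 CPM, near the floor and barely past the threshold (edgeR adjusted p = 0.0498). Among 4 of them tested in the overexpression experiment, 0 passed the threshold with ANKRD10-1 (edgeR; 1 at an unadjusted p under 0.05 and 0 by DESeq2), and NRG1, a neuregulin that binds ERBB3, rose with ANKRD10-2 (0.74 ± 0.082) and in KO1 (0.64) and KO2 (0.40) and fell with siANKRD10-2 (-0.56). With siANKRD10-1, 0 of 2 tested passed by edgeR and 0 by DESeq2, with 1 at an unadjusted p under 0.05, and with siANKRD10-2 1 rose and 2 fell of 3 tested. Of 5 genes of ligand release (ADAM10, ADAM17, RHBDF1, RHBDF2 and FRMD8), 3 rose and 1 fell in KO1, 2 rose and 1 fell in KO2, 1 fell with ANKRD10-1, 3 fell with ANKRD10-2, and 2 fell with each siRNA. FRMD8, a partner of the iRhom proteins that guide ADAM17, fell with siANKRD10-2 (-0.74 ± 0.109) and ANKRD10-2 (-0.60 ± 0.175) and rose in KO1 (0.61 ± 0.068).

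Of 24 adaptors and kinases between the receptors and their response genes, 7 rose and 8 fell in KO1, 10 rose and 5 fell in KO2, 0 passed with ANKRD10-1 by edgeR (4 at an unadjusted p under 0.05 and 1 by DESeq2), 3 rose with ANKRD10-2, 2 rose and 6 fell with siANKRD10-1, and 2 rose and 7 fell with siANKRD10-2. PIK3R1, a regulatory subunit of PI3 kinase, fell in KO1 (-0.99 ± 0.083), KO2 (-1.10 ± 0.057) and with siANKRD10-1 (-0.32 ± 0.089). Of 12 genes of receptor down-regulation, 2 rose and 3 fell in KO1, 3 rose and 4 fell in KO2, 0 passed with ANKRD10-1 by edgeR (1 at an unadjusted p under 0.05 and 0 by DESeq2), 3 rose and 1 fell with ANKRD10-2, 4 fell with siANKRD10-1, and 2 rose and 3 fell with siANKRD10-2. SH3KBP1, an adaptor in receptor endocytosis, rose in KO2 (1.43 ± 0.056), KO1 (0.64 ± 0.060), ANKRD10-2 (0.14 ± 0.047) and siANKRD10-2 (0.22 ± 0.057). Median log2 fold changes of these lists lay between -0.47 and 0.20, and those of all genes tested between -0.02 and 0.00.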

How the data were processed

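Poly(A) mRNA of 5637 cells was sequenced in 30 libraries (10 groups of 3). The authors deposited read counts per gene, whole numbers without normalization, in 3 tables. The submitters' processing notes name GRCh38, Trimmomatic 0.36 and featureCounts of Subread 1.5.1, while the study's methods name Cutadapt, HISAT2, StringTie and DESeq2. Chromosome, start and end in the overexpression table matched GENCODE v29 (GRCh38) for 93.143% of 36063 symbols, and the knockdown table was not compared. Exon lengths were those of the overexpression table. They differed from GENCODE v29 for EGFR (12511 against 12521 bases) and ERBB3 (8658 against 9039 bases). The same lengths were applied to the knockdown and knockout tables. Genes of the knockout table, which names no annotation, were found by Ensembl identifier. No column of the tables was left unused (0 columns).

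Groups were taken from the labels. Each comparison was fitted on its own groups with edgeR 4.0.16 in R 4.3.3 (filterByExpr with a minimum count of 10 and minimum total of 15, TMM, quasi-likelihood test, prior count 0.125), with p-values adjusted by Benjamini-Hochberg over all genes of the fit and called under 0.05. KO1 and KO2 effects were compared by an interaction term in a fit of the 4 groups of their table. CPM values use TMM factors over all libraries of a table, and level per length is CPM per kb of exon. Errors of fold changes are SE and those of levels SD over 3 libraries. For 3 libraries a side, exact permutation reaches no p below 0.1, so that edgeR's model across genes was used. The scripts were tested on simulated data.

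The 10 genes, the lists of pathway genes and markers and the tests were chosen with earlier results of these data known. Named from the pathway lists were, in each comparison, up to 3 genes with the largest absolute log2 fold change among those past the threshold, with a mean of at least 1 CPM and no overlap between groups. A gene named in a comparison is given in the others where it passed the threshold. Pattern likeness was computed for the pair of members with the largest root mean square log2 fold change, each with its 3 nearest genes. Alternatives were DESeq2 1.42.0, other scaling factors, other filters, all groups of a table in the fit, all 6 WT libraries as controls, a block on replicate number, a fold rule and leaving out each library. Replicates differed beyond counting noise in every group, so none was counted as a duplicate.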

Additional observations from a re-analysis of the deposited data

Results flagged for a closer look

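The difference between the effects of the knockouts, KO1 against WT1 minus KO2 against WT2, passed edgeR's interaction test for 6 of the 10 genes. The values on the log2 scale were -0.512 for EGFR, -1.047 for AREG, -1.752 for EREG, -0.434 for TGFA, -1.216 for EPGN and -0.789 for ERRFI1, so each was higher in KO2. WT2 was below WT1 for EREG, AREG and ERRFI1 past the threshold. A clone stands behind each knockout, the guide RNAs were distinct as well, and guide, clone and knockout cannot be told apart.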

How the results depend on the processing

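Of the 34 values past the threshold in the 6 comparisons with a control group, 28 kept their call under every alternative run with the adjusted p threshold alone, and 4 of the 26 others gained one under at least 1. A called value changed sign for ERRFI1 in KO1, at 0.012 against all 6 WT libraries, where EGFR, not called, was at 0.051. The other changes of sign were in values near 0 that were not called: with library totals only, ERBB2 and ERRFI1 with ANKRD10-1 (-0.028 and -0.006) and EGFR between the siRNAs (0.017), with all groups in the fit ERBB2 with siANKRD10-1 (0.000), and with no filter on low counts TGFA in WT2 against WT1 (0.003).

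A further requirement of a log2 fold change of 1 or more in size left, of the 10 genes, 1 in KO1 (of 1149 genes called), 4 in KO2 (1095) and 3 in the difference between the knockouts (1059), but 0 with ANKRD10-1 (80), ANKRD10-2 (241), siANKRD10-1 (69) and siANKRD10-2 (500), 0 in WT2 against WT1 (16), 0 between the isoforms (72) and 0 between the siRNAs (514), by the construction of the rule. DESeq2 called 5 members and 690 genes in WT2 against WT1, where edgeR called 226 genes and 88 with no filter. Between the siRNAs 1 member was called by DESeq2, with no filter and with the replicate block, in place of 2.

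Leaving out 1 library at a time gave 700 to 1549 genes called with ANKRD10-1 (2 to 4 members), 2617 to 3533 with ANKRD10-2, 949 to 2430 with siANKRD10-1, 71 to 133 in WT2 against WT1, 694 to 1396 between the isoforms, and 1 to 3 members between the siRNAs. The counts fell by over 1.5 times without ANKRD10-1 replicate 1 or 2 or Vector replicate 1 or 2 (ANKRD10-1), Vector replicate 1 or 2 (ANKRD10-2), siNC replicate 1 or 2 or siANKRD10-1 replicate 1 or 3 (siANKRD10-1), any library of WT1 or WT2, and ANKRD10-1 replicate 1, 2 or 3 or ANKRD10-2 replicate 3 (between the isoforms). In WT2 against WT1 the AREG call was lost without WT1 replicate 1 or 3 or WT2 replicate 1 or 3. Fold changes that changed sign were not called: EGFR in KO1 (-0.046 to 0.006), EPGN (-0.046 to 0.316) and ERBB2 (-0.013 to 0.066) with ANKRD10-1, BTC (-0.168 to 0.044) and ERBB2 (-0.012 to 0.020) with siANKRD10-1, HBEGF (-0.118 to 0.091), ERBB2 (-0.049 to 0.011) and BTC (-0.086 to 0.175) in the difference between the knockouts, TGFA in WT2 against WT1 (-0.048 to 0.031), BTC between the isoforms (-0.008 to 0.231) and EGFR between the siRNAs (-0.052 to 0.012). The cause of these changes was not tested.

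Whether replicate numbers pair the libraries is not settled. In no comparison were all 3 correlations of same-numbered libraries above 0.1. In KO2 against WT2 they were 0.101, 0.098 and 0.07, where the highest with another number were -0.04, -0.015 and -0.009. In ANKRD10-2 against Vector they were 0.083, 0.173 and 0.202, where the highest with another number were -0.002, 0.056 and -0.093. With the replicate block the members called were 7 in KO1, 9 in KO2, 4 and 6 with the isoforms, 3 and 5 with the siRNAs and 6 in the difference between the knockouts, the same counts as without it, but in KO1 ERRFI1 lost its call (edgeR adjusted p = 0.0522) and EPGN gained one (edgeR adjusted p = 0.0481). Without division by length EGFR had the highest mean CPM of the 10 genes in WT1, where ERRFI1 led per length, and in siNC, where AREG did. EPGN and BTC, under 3 CPM in the overexpression experiment, have the widest intervals there.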
